A study of Mus musculus with 2 samples.

Results

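The genes that encode the proteins of the cytosolic ribosome were examined for EGR1 peaks in mouse frontal cortex. They were the protein-coding genes of GENCODE release M21 whose symbol is Rpl or Rps followed by a digit, or Rplp0, Rplp1, Rplp2 or Rpsa, without the ribosomal S6 kinases and the pseudogenes. The rule took 86 of 22028 protein-coding genes. Of these, 46 encode proteins of the large subunit and 31 proteins of the small subunit, and the remaining 9 are tissue-specific or minor paralogues, or proteins that only bind a ribosomal protein (Rpl10l, Rpl22l1, Rpl36al, Rpl39l, Rpl3l, Rpl7l1, Rps19bp1, Rps27l and Rps27rt). EGR1 is a zinc finger transcription factor encoded by an immediate early gene of neurons. In chromatin immunoprecipitation with sequencing (ChIP-seq), an antibody against EGR1 recovers the crosslinked DNA to which the protein is attached.

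The chromatin came from frontal cortices of male C57BL6N/129SvEv F1 hybrid mice (129SvEv mother, C57BL/6N father) at 6 weeks of age, with tissue of 4 to 5 mice pooled in each of 2 ChIP experiments. Both experiments were merged into 1 list of 12014 peaks, each with its position and its irreproducible discovery rate (IDR), which is low where a peak ranked high in both experiments. There was no read count, so the depth is unknown, and no value per experiment, so replicate error could not be estimated. The mice had no mutation or treatment in the labels, the input DNA was not analysed here, and no marker of a cortical cell type can be read from a list of peaks.

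Each ribosome is built from a small subunit, which reads the mRNA, and a large subunit, which joins the amino acids. Their proteins are made in matched amounts by highly active promoters, which usually lie in CpG islands and start transcription at a cytosine within a pyrimidine tract. The tract becomes the 5′ terminal oligopyrimidine (TOP) end of the mRNA, through which growth signalling controls its translation, and in neurons new protein synthesis is part of lasting synaptic change.

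EGR1 is known to bind the 9-base element GCGTGGGCG or GCGGGGGCG. In the EGR1 peaks at ribosomal protein genes, 7 such elements were found by sequence match, and they are printed here with their surroundings. Each line gives 10 bases to each side of the element, read 5′ to 3′ on the strand that holds it, on mm10 (GRCm38.p6), with the element in capitals.
Rpl27a (chr7:109519145-109519173, minus strand): ggtagcaggcGCGGGGGCGggaccaatgc
Rps2 (chr17:24719988-24720016, plus strand): acagatcacgGCGGGGGCGggacaagacg
Rps13 (chr7:116334198-116334226, plus strand): ttgctctcgcGCGGGGGCGgggctacata
Rpl12 (chr2:32961682-32961710, plus strand): cctatatccgGCGTGGGCGgagcaggatc
Rps24 (chr14:24490649-24490677, minus strand): ggaccccagcGCGGGGGCGtggctaaggc
Rpl7a (chr2:26910660-26910688, minus strand): cggagcctgaGCGGGGGCGtgtcgggccg
Rpl3 (chr15:80092748-80092776, plus strand): ttgtgaggggGCGTGGGCGttccttctgc

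Of these 7 elements, 2 were GCGTGGGCG and 5 were GCGGGGGCG. All lay 8 to 43 bp from the centre of their peak. The element pointed the same way as the gene in 2 cases (Rpl12 and Rps2) and the opposite way in 5. At Rpl27a, Rps2, Rps13, Rps24 and Rpl7a its middle base lay 12 bp after and 61, 17, 55 and 90 bp before the principal TSS. At Rpl12 it lay 137 bp after the principal TSS, and at Rpl3 it lay in a second peak far upstream of it, before the TSS of a longer transcript.

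Another 14 peaks held no exact element but 17 sites that differ from it by 1 base. These 3 sites differ at the 2 positions where differences were most frequent, again with the site in capitals.
Rpl23 (chr11:97782415-97782443, minus strand): tcacgtggctGAGTGGGCGgggcctcccg
Rpl37 (chr15:5116622-5116650, plus strand): acaggaagtgGCGGGGGTGctttctcttc
Rplp2 (chr7:141447225-141447253, minus strand): cacgtgggctGGGTGGGCGgctattggtt

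The substitution is C2A at Rpl23, C8T at Rpl37 and C2G at Rplp2, where the first letter is the base of the element, the position counts from 1 at its 5′ end and the last letter is the base in the site. Base 2 differed in 10 of the 17 sites and base 8 in 5, while bases 5 and 9 differed in 1 site each. Bases 2 and 8 are the cytosines of the element. All sites that differ at base 2, except that at Rpl13a, are followed by a G. They therefore also hold the whole sequence GGGCGG, the GC box that SP1 binds. The same is true of the exact elements at Rpl27a, Rps2, Rps13 and Rpl12. Which factor binds these sites was not tested. In peaks at other protein-coding genes without an exact element, the difference fell on base 2 in 25.8% and on base 8 in 17.6% of 6991 sites, and bases 1, 3, 4, 6 and 7, which were intact in all 17 sites of the ribosomal protein genes, also differed there. At Rpl37 the site lay 9 bp before the principal TSS and was followed directly by the pyrimidine-rich start of the transcript.

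A gene was counted as having a peak where the centre of a peak lay within 1 kb of any of its TSSs. By this measure, 31 of the 86 ribosomal protein genes had an EGR1 peak, or 36.0% (95% Wilson interval 26.7 to 46.6%), where the share over all protein-coding genes was 28.0%. Intervals over genes or peaks treat them as independent draws and hold no replicate error. The difference from the other protein-coding genes (6134 of 21942) was 8.09 percentage points, with a 95% Newcombe interval of -1.28 to 18.7 that includes 0. The small subunit genes had a peak in 13 of 31 cases (41.9%, 26.4 to 59.2%) and the large subunit genes in 16 of 46 (34.8%, 22.7 to 49.2%). The difference of large minus small was -7.15 points, with an interval of -28.3 to 14.1, so the subunits could not be told apart. Among the 9 paralogues and binding proteins, Rps27l and Rps19bp1 had a peak and the other 7 had none.

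**Figure D1:**
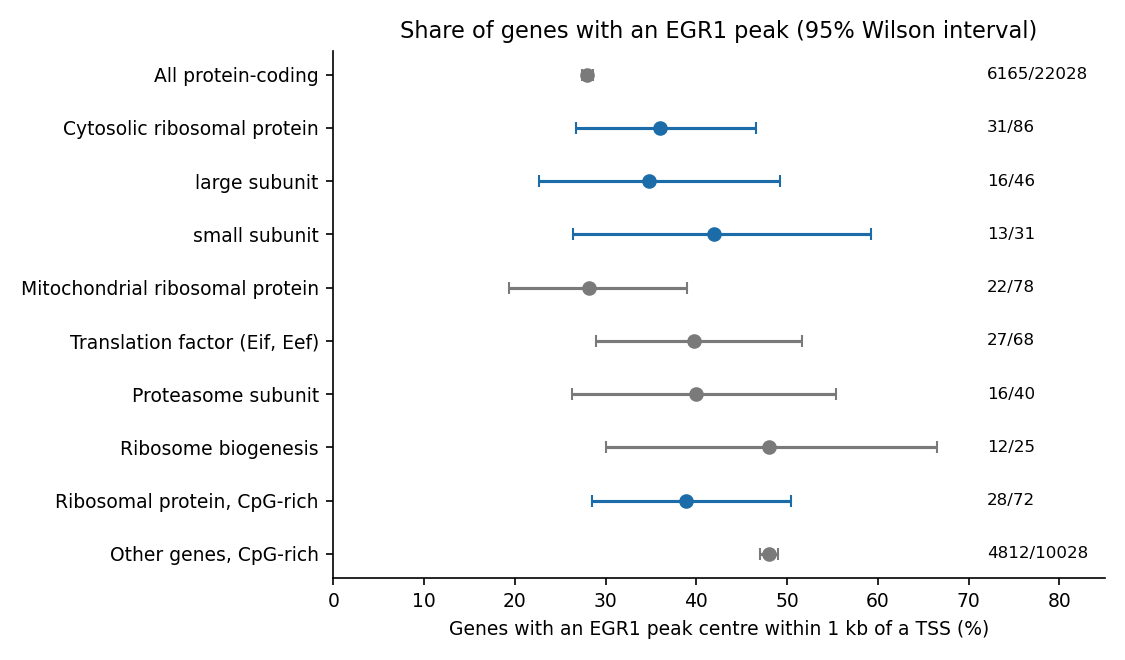
Share of genes (%, horizontal axis) with an EGR1 peak centre within 1 kb of a TSS, for ribosomal protein genes and their subsets (blue) and for other gene groups (grey), with 95% Wilson intervals as bars and counts at the right. The interval of the 86 ribosomal protein genes, 26.7 to 46.6%, spans the shares of the mitochondrial ribosomal protein, translation factor and proteasome genes but not the 48.0% of the ribosome biogenesis genes, and the interval of the 72 CpG-rich ones, 28.5 to 50.4%, includes the 48.0% of other CpG-rich genes.

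Other genes of protein synthesis and turnover were counted in the same way. Genes of the mitochondrial ribosome had a peak in 22 of 78 cases (28.2%), translation initiation and elongation factor genes in 27 of 68 (39.7%), genes of ribosome biogenesis in 12 of 25 (48.0%) and genes of the proteasome, which degrades proteins, in 16 of 40. The Wilson intervals of all 4 groups overlapped that of the cytosolic ribosomal protein genes. The symbol rule misses Fau, whose ribosomal protein is made as a fusion with a ubiquitin-like protein. Fau, the source of the small subunit protein eS30, had a peak with an IDR of 9.52e-06 centred 39 bp after a TSS.

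The sign of the comparison differed when only CpG-rich promoters were compared. CpG-rich was defined as a CpG observed to expected ratio of at least 0.6 and a GC content of at least 50% in the 500 bp to each side of the principal TSS, and 72 of the 86 genes met it. Among all CpG-rich protein-coding genes, 47.9% had a peak. CpG-rich ribosomal protein genes had one in 28 of 72 cases (38.9%, 28.5 to 50.4%), and the other CpG-rich genes in 4812 of 10028 (48.0%). The difference was -9.10 points, with an interval of -19.6 to 2.49 that includes 0. The 14 ribosomal protein genes outside this class had a peak in 3 cases (Rpl18, Rpl4 and Rps10), or 21.4% (7.57 to 47.6%). Other such genes had one in 11.1%, which this interval includes. The 2 sets were not alike, with median CpG ratios of 0.55 and 0.24. Rpl4 had a CpG ratio of 0.76 and missed the class only by its GC content. The Rps10 peak lay 1238 bp from the principal TSS, outside the window that defined the class.

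**Figure D2:**
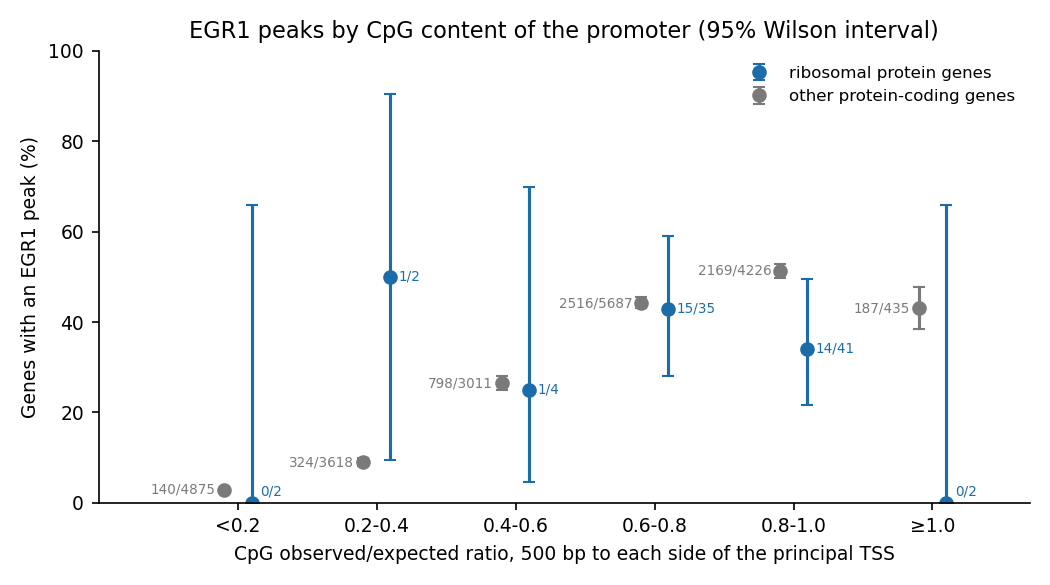
Share of genes (%, vertical axis) with an EGR1 peak by the CpG observed to expected ratio around the principal TSS (horizontal axis), for ribosomal protein genes (blue) and other protein-coding genes (grey), with 95% Wilson intervals and counts. Most ribosomal protein genes fall in the 2 bins from 0.6 to 1.0, where 15 of 35 and 14 of 41 had a peak.

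Within narrower classes of CpG ratio, ribosomal protein genes from 0.6 to 0.8 had a peak in 15 of 35 cases (42.9%), close to the 44.2% of other genes. From 0.8 to 1.0 they had one in 14 of 41 (34.1%, 21.6 to 49.5%), where other genes had one in 51.3% (49.8 to 52.8%), and these intervals did not overlap. The 2 sets were not matched on GC content, whose median in this class was 58.4% in ribosomal protein genes and 64.3% in other genes (58.0% and 61.8% over all CpG-rich genes), and its part in the difference was not tested. Genes with and without a peak had like compositions. The median CpG ratio was 0.79 in the 31 ribosomal protein genes with a peak and 0.81 in the 55 without, and the median GC content was 58.4% and 56.3%. In other protein-coding genes the same medians were further apart, at 0.75 against 0.39 for the CpG ratio and 61.2% against 52.3% for GC.

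The count also moved with the neighbours of the genes. A TSS of another protein-coding gene lay within 1 kb of a TSS for 19 of the 86 genes, and 12 of these had a peak (63.2%, 41.0 to 80.9%), where other genes with such a neighbour had one in 44.3%. The 67 ribosomal protein genes without one had a peak in 19 cases (28.4%), where other genes had one in 25.2%. CpG-rich genes without such a neighbour had a peak in 19 of 57 cases among ribosomal protein genes (33.3%) and in 47.0% of other genes, a difference of -13.7 points (-24.6 to -0.664). A peak that also has a TSS of another protein-coding gene within 1 kb cannot be assigned to either gene. This holds for 10 peaks at Rpl12 (Lrsam1), Rpl15 (Nkiras1), Rpl18 (Sphk2), Rpl35a (Iqcg), Rpl4 (Zwilch), Rpl7a (Med22), Rps25 (Trappc4), Rps27a (Clhc1) and Rps10, which overlaps a read-through gene with Nudt3. For 3 peaks, at Rpl18, Rpl4 and Rpl7a, the nearest TSS belonged to the neighbour.

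The 31 genes held 33 peaks, since Rpl3 and Rpl18 had 2 each. Their IDRs ran from 1.63e-08 to 0.0179, with a median of 2.45e-06 (exact binomial interval 2.74e-07 to 1.56e-05). The 6603 peaks at other protein-coding genes had a median of 7.28e-05 (5.95e-05 to 9.04e-05), so the intervals did not overlap. Of the 33 peaks, 25 (75.8%, 59.0 to 87.2%) were among the 50% of the list with the lowest IDR, against 59.4% of peaks at other genes, and 8 (24.2%, 12.8 to 41.0%) were in its lowest 10%, against 14.6%. Both of these intervals included the share of the other genes.

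**Figure D3:**
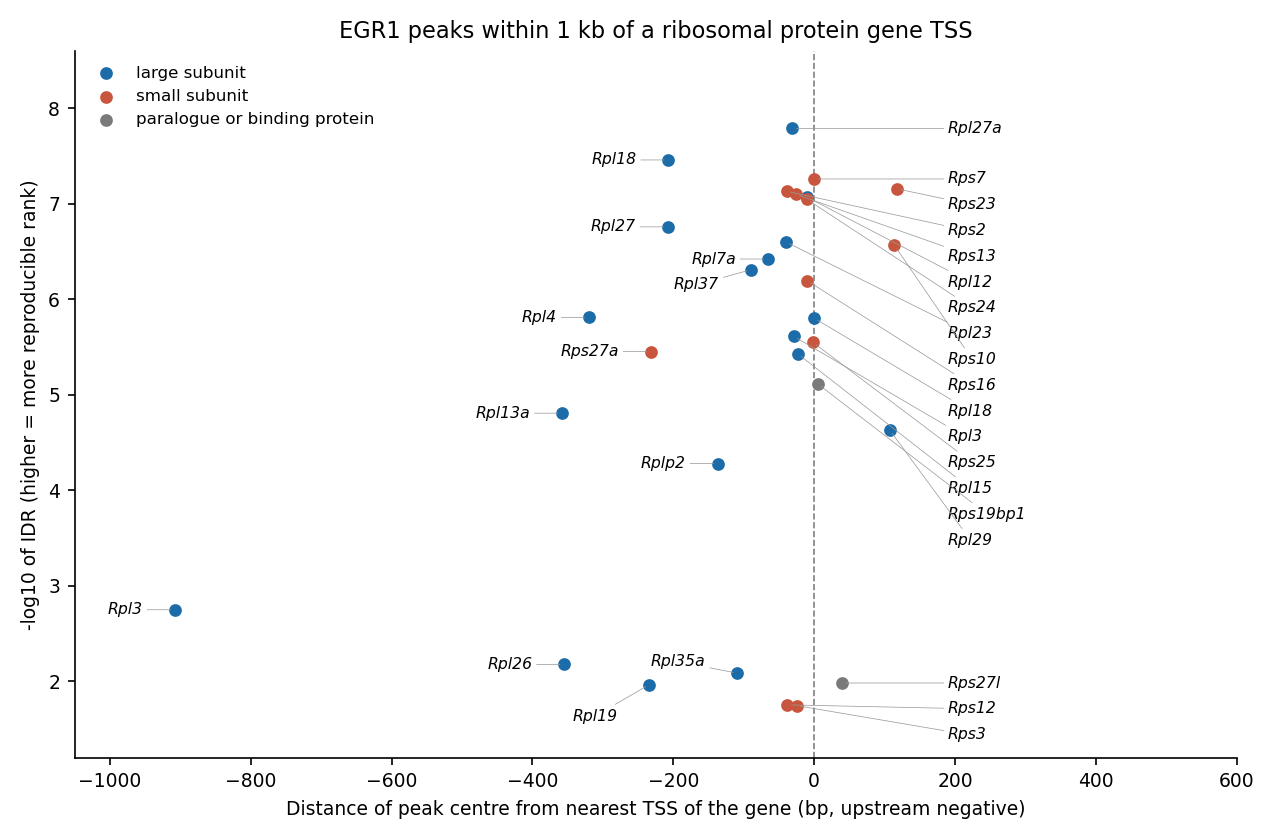
EGR1 peaks within 1 kb of a TSS of a ribosomal protein gene (31 of the 33 are plotted), each a labelled point, by the distance of the peak centre from the nearest TSS of the gene (bp, upstream negative) and by -log10 of the IDR, for large subunit genes (blue), small subunit genes (red) and paralogues or binding proteins (grey). Most points lie within 250 bp of the TSS (27 of 31), and the second peak of Rpl3 stands alone at -908 bp.

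The lowest IDR was at Rpl27a, which encodes uL15 of the large subunit. Its peak (chr7:109518969-109519263) had an IDR of 1.63e-08, rank 94 of the list, and was centred 31 bp before the TSS. It was 295 bp wide, the widest at any ribosomal protein gene. Rpl18 encodes eL18 of the large subunit. Its first peak had an IDR of 3.49e-08 and lay 207 bp before the TSS, nearer to the start of Sphk2, a sphingosine kinase. The second peak of Rpl18 had an IDR of 1.58e-06 and was centred on a TSS inside the gene. Rps7 encodes eS7 of the small subunit, and its peak, centred on the TSS, had an IDR of 5.52e-08. Next was Rps23, which encodes a protein of the decoding centre, with a peak of 6.99e-08 centred 117 bp after the TSS. The peak at Rps2, the gene for uS5, had an IDR of 7.42e-08, 39 bp before the TSS. Rps13 (uS15) had 7.98e-08 at 26 bp before the TSS, Rpl12 (uL11, at the base of the stalk that recruits translation factors) had 8.56e-08 and Rps24 (eS24) had 9.05e-08, both 10 bp before a TSS. Rpl27, the gene for eL27, had 1.75e-07 at 208 bp before the TSS, and Rpl23, the gene for uL14, had 2.52e-07 at 40 bp before it. These 10 genes were 5 of each subunit, and 5 of them held an exact element.

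At the other end of the list were Rpl35a (0.00821), Rps27l (0.0104), Rpl19 (0.0108), Rps12 (0.0176) and Rps3 (0.0179), close to the IDR limit of 2%. None of these 5 peaks held an exact element. Their widths were 250 to 264 bp, whereas those of the 10 lowest were 125 to 295 bp. Rps3 encodes a small subunit protein at the mRNA entry that also acts in DNA repair, and Rps27l is a paralogue of Rps27 known as a target of p53. The other paralogue or binding protein with a peak was Rps19bp1, whose product binds Rps19 and activates the deacetylase SIRT1, with an IDR of 7.69e-06 at 5 bp after the TSS.

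The second peak of Rpl3 (chr15:80092645-80092908) had an IDR of 0.00178 and lay 908 bp before the TSS of a longer transcript, while the first (chr15:80083304-80083567) had 2.45e-06 and lay 29 bp before the principal TSS. Rpl3 encodes uL3, near the peptidyl transferase centre. The exact element of the gene was in the second peak, and the first held no site within 1 mismatch. Of the stalk genes, Rplp2 had a peak with an IDR of 5.26e-05 at 137 bp before the TSS, whereas Rplp0 and Rplp1, whose products form the same stalk, had none within 1 kb, the nearest peak centres being 11645 and 84135 bp away. Rpsa, the gene of a small subunit protein that also acts as a laminin receptor, had its nearest peak centre at 16837 bp. Rps6, whose product is phosphorylated on neuronal activity and is widely used as a mark of it, had none closer than 17285 bp. The same was true of Rpl10, an X-linked gene of the large subunit, at 57204 bp.

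No peak within 1 kb was found at 55 genes. Besides those already named they included Rpl10a, Rpl11, Rpl13, Rpl14, Rpl17, Rpl21, Rpl22, Rpl23a, Rpl24, Rpl28, Rpl30, Rpl31, Rpl32, Rpl34, Rpl35, Rpl36, Rpl36a, Rpl37a, Rpl38, Rpl39, Rpl41, Rpl5, Rpl6, Rpl7, Rpl8 and Rpl9 of the large subunit, and Rps14, Rps15, Rps15a, Rps18, Rps19, Rps20, Rps21, Rps26, Rps27, Rps28, Rps29, Rps3a1, Rps4x and Rps9 of the small subunit. The remaining genes with a peak included Rpl13a, Rpl15, Rpl26, Rpl29, Rpl37, Rpl4, Rpl7a, Rps10, Rps16, Rps25 and Rps27a, with IDRs of 2.74e-07 to 0.00665. A gene without a peak had none that passed the IDR limit, which is not a measure of no binding. Among the 55 genes, 2 had a peak centre at 1 to 2 kb (Rpl41 at 1312 bp and Rpl7 at 1392 bp), 13 at 2 to 10 kb and 40 only farther away, with a median of 24668 bp. Just inside the limit, apart from the second Rpl3 peak, were Rpl13a at 358 bp and Rpl26 at 355 bp, so no gene depended on the exact choice between 500 bp and 1 kb.

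The peaks sat close to the start sites and mostly before them. The median distance from the peak centre to the nearest TSS of the gene was 40 bp (28 to 117), against 108 bp (102 to 113) at other protein-coding genes. The intervals overlapped between 102 and 113 bp. The centre lay upstream in 26 of 33 peaks (78.8%, 62.2 to 89.3%) and downstream in 5, with 2 on the TSS itself, whereas 59.7% of peaks at other genes lay upstream and 39.8% downstream. Within 50 bp of a TSS were 17 of the 33 (51.5%, 35.2 to 67.5%), against 31.2%. Ribosomal protein genes have more annotated TSSs, with a median of 6 per gene against 3. With only the principal TSS of each gene, 30 peaks lay within 1 kb at a median distance of 78 bp (31 to 151), against 152 bp (144 to 162), again with overlapping intervals, and 23 of the 30 lay upstream (76.7%, 59.1 to 88.2%), against 54.1%. In the annotation, 20 peak centres were upstream of the gene body, 8 in an exon with untranslated sequence, 4 in an intron and 1 in an exon of a noncoding transcript.

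**Figure D4:**
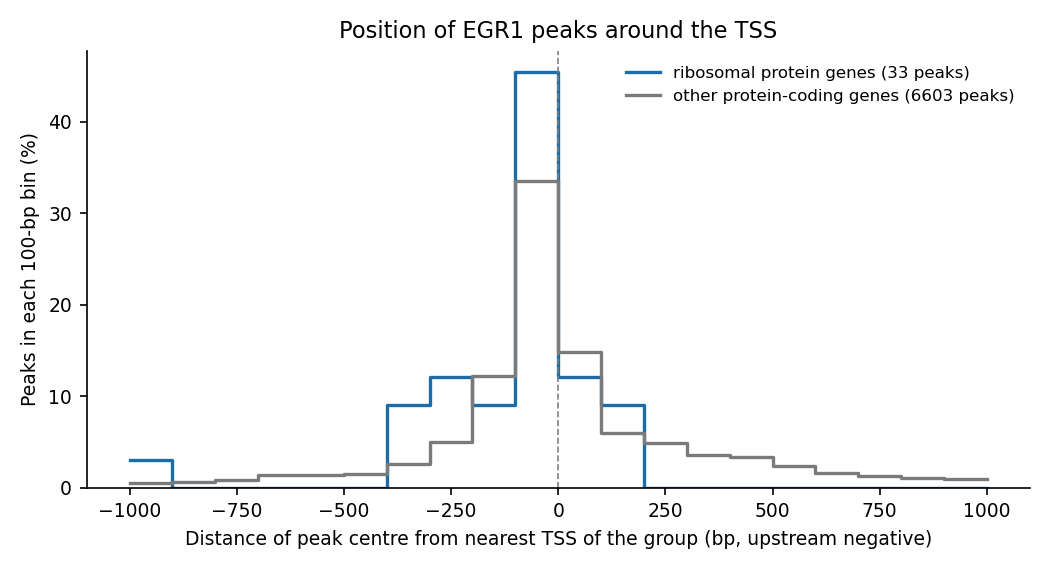
Share of EGR1 peaks (%, vertical axis) in bins of 100 bp by the distance of the peak centre from the nearest TSS (bp, upstream negative), for the 33 peaks at ribosomal protein genes (blue) and the 6603 peaks at other protein-coding genes (grey). The 100 bp before the TSS hold 15 of the 33 peaks (45.5%) and 33.5% of the others, and beyond 200 bp downstream there is no peak at a ribosomal protein gene.

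The CpG ratio of the peaks was not clearly apart from that at other genes, while their GC content was slightly lower. The median CpG ratio was 0.91, with an interval of 0.73 to 0.99 that includes the 0.78 at other genes. The median GC content was 63.1% (59.4 to 66.0%) against 66.3% (66.0 to 66.6%), and these intervals met only at 66.0%. The exact EGR1 element, searched on both strands, was in 7 of 33 peaks (21.2%, 10.7 to 37.8%), close to the 23.1% of peaks at other genes. With up to 1 mismatch it was in 21 peaks (63.6%, 46.6 to 77.8%), below the 83.7% (82.8 to 84.6%) of other peaks, and the intervals did not overlap. The 12 peaks with no site up to 1 mismatch included low IDRs, such as those at Rps7, Rps23 and the first peak of Rpl18. By class, the median IDR was 8.56e-08 for the 7 peaks with an exact element, 2.56e-06 for the 14 with 1 mismatch only and 4.80e-06 for the 12 with none. The ranges of the 3 classes overlapped, at 1.63e-08 to 0.00178, 1.75e-07 to 0.0108 and 3.49e-08 to 0.0179.

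**Figure D5:**
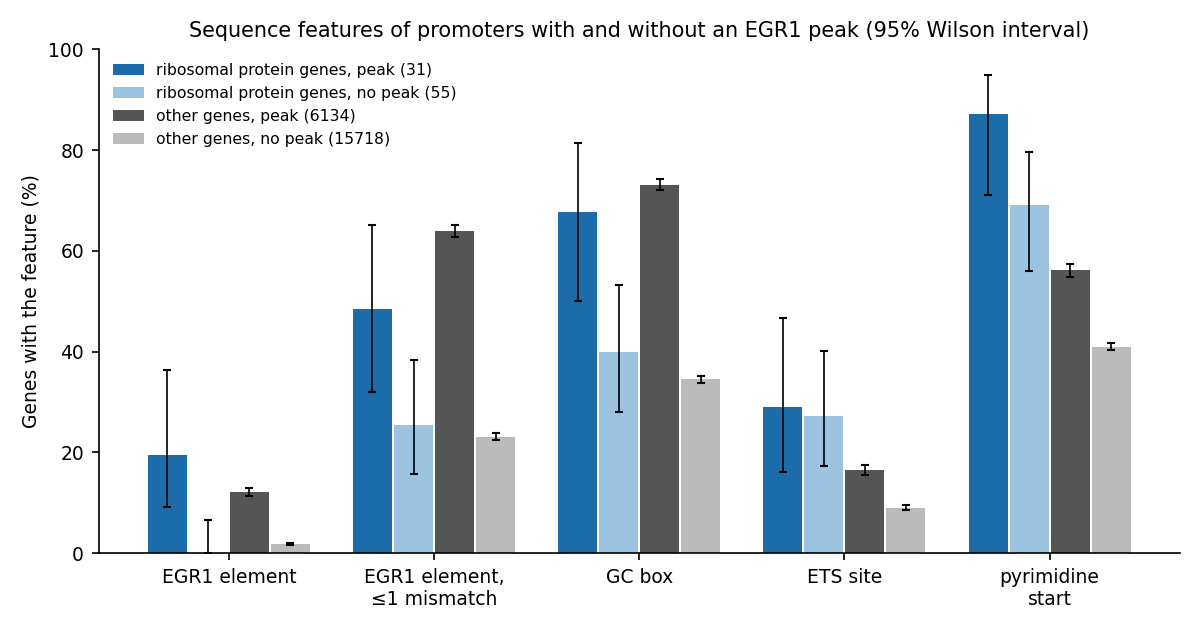
Share of genes (%, vertical axis) with a sequence feature in the promoter, for ribosomal protein genes with and without an EGR1 peak (dark and light blue) and other protein-coding genes with and without one (dark and light grey), with 95% Wilson intervals as bars. The exact EGR1 element and the GC box had higher shares in genes with a peak in both sets, with overlapping intervals for the GC box in ribosomal protein genes, whereas the ETS site was as frequent in ribosomal protein genes with a peak (29.0%) as in those without (27.3%).

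Promoters were then compared from 250 bp before to 50 bp after the principal TSS, on both strands. The exact EGR1 element was in 4.69% of all protein-coding promoters and in 8.78% of the CpG-rich ones outside the ribosomal protein genes. Among ribosomal protein genes it was in 6 of the 31 with a peak (19.4%, 9.19 to 36.3%) and in 0 of the 55 without (upper Wilson bound 6.53%), against 12.1% and 1.79% of other genes. The 6 were Rpl27a, Rpl7a, Rps13, Rps2, Rps24 and Rps27l, the last with its element outside the peak. With up to 1 mismatch the element was in 15 of 31 (48.4%) and 14 of 55 (25.5%), against 64.0% and 23.1% of other genes and 34.6% of all. Over all 86 genes this form was in 33.7% (24.6 to 44.2%), against 59.8% of other CpG-rich promoters. The GC box GGGCGG, which SP1 binds and which can overlap the end of GCGGGGGCG where another G follows, was in 21 of 31 (67.7%) and 22 of 55, and in 45.3% of all promoters.

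The ETS site CCGGAAG, which factors such as GABPA bind, was in 24 of the 86 ribosomal protein promoters (27.9%, 19.5 to 38.2%), against 11.1% of other protein-coding promoters and 18.8% of the CpG-rich ones among them. It was in 9 of 31 genes with a peak and 15 of 55 without. AAGATGGCG, a form of the YY1 site, was in 5 of 86 (5.81%, 2.51 to 12.9%), against 1.85% of all promoters and 3.40% of other CpG-rich ones. The CREB site TGACGTCA was also in 5 of 86, against 2.51% of all and 3.79% of other CpG-rich promoters. For both sites the interval included the value of the CpG-rich promoters. TATAAA between 40 and 15 bp upstream was in 0 of 86 (upper Wilson bound 4.28%), against 2.43% of all and 0.768% of other CpG-rich promoters. A cytosine followed by 4 pyrimidines within 5 bp of a TSS, the mark of a TOP start, was at some TSS of 65 of the 86 genes (75.6%, 65.5 to 83.4%), against 45.4% of all. It was at 27 of the 31 genes with a peak (87.1%, 71.1 to 94.9%) and 38 of the 55 without (69.1%). Put the other way, 27 of the 65 genes with such a start had a peak (41.5%, 30.4 to 53.7%) and 4 of the 21 without one, and these intervals overlapped. In other protein-coding genes the shares were 34.8% and 22.5%. At the principal TSS alone, which needs no allowance for the number of TSSs, it was at 26 of 86 (30.2%, 21.5 to 40.6%), against 18.4% of all. There the shares with and without a peak were close, at 10 of 31 (32.3%, 18.6 to 49.9%) and 16 of 55 (29.1%, 18.8 to 42.1%).

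The genes with a peak were spread over 11 chromosomes. Chromosome 7 held 14 ribosomal protein genes, 9 of them with a peak, where 25.3% of its other protein-coding genes had one. Chromosome 11 held 7, of which 5 had a peak, where 32.2% of its other genes had one. The 4 genes on chromosome X had none, where 11.9% of the other genes had one. These chromosomes were not fixed in advance, and the genes compared were not matched on CpG content. Over all chromosomes, 47.9% of CpG-rich protein-coding genes had a peak. Ribosomal protein genes have many processed copies in the genome, to which reads could also map. The 31-bp word at the middle of the peak occurred only once on the assembled chromosomes for all 33 peaks. Of the 31-bp words of the promoters, the median share that occurs once was 100% in genes with and without a peak. It was 90% or more in 30 of 31 and in 48 of 55 genes, with lowest values of 85.6% and 57.8%. Its part in the missing peaks was not tested.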

How the data were processed

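EGR1 ChIP-seq of frontal cortex was available as 1 peak list. The authors aligned the trimmed 100-bp reads to mm10 (Bowtie), used SPP for peak calling in each of 2 experiments and merged the peaks that passed an IDR of 2%. The submitters' processing notes name cutadapt 11.2, Bowtie2 2.2.9 and bedtools 2.26.0. Beside positions, the deposited table gives 1 IDR per peak, a rate comparable to a q-value. The list holds no counts, so the depth and the counting precision are unknown.

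Starts were taken to count from 0, as in BED, and 1-based positions are printed. Peak centres were assigned to genes by the TSSs of all GENCODE M21 transcripts, 1 principal TSS per gene (APPRIS) gave the promoter, and sequences came from GRCm38.p6. Shares have 95% Wilson intervals, their differences Newcombe intervals and medians exact binomial intervals. No test was run, since 1 merged list has no replicates. Genes and lists were chosen with earlier results of these data known. Values are given for the 10 genes with the lowest and the 5 with the highest IDR, genes with 2 peaks or an exact element, the stalk genes, Rpsa, Rps6, Rpl10, the paralogues and binding proteins, Fau and the S6 kinases, and other genes with a value were named after their values were seen. Some genes are counted but not reported here by name. Alternatives changed the distance limit, the TSSs, the peak edge, the IDR limit, the genes compared and the motif. The scripts, tested on simulated data, ran in Python 3.11.15 (pandas 2.3.3, numpy 2.4.6, pysam 0.24.0, scipy 1.17.1, matplotlib 3.10.9, numba 0.67.0).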

Additional observations from a re-analysis of the deposited data

How the results depend on the processing

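Of 50 values under alternatives, 45 stayed within the interval of the value as reported, 2 left it and 3 took the opposite sign. The share of peaks with the EGR1 element was 63.6% with 1 mismatch allowed and 9.09% for the 10-base form that ends in a further G. The share of ribosomal protein genes minus that of other genes was -11.9 points against other CpG-rich genes only (-21.3 to -1.35). It was -9.10 points with both sets CpG-rich and -13.7 points with both also lacking a neighbouring start, which were chosen after seeing the data. The interval of this difference excluded 0 on the positive side at limits of 250 bp (10.5 points, 1.54 to 21.0) and 500 bp (10.4, 1.00 to 20.9), with 1 TSS per gene (9.95, 0.702 to 20.5), at an IDR of 0.001 or less (8.77, 0.212 to 19.1) and in the 50% of peaks with the lowest IDR (9.87, 1.47 to 20.1). Without ribosomal protein genes that have a neighbouring start it fell to 0.403 points (-9.00 to 12.2). Reading starts as counted from 1 changed neither the share nor this difference. No paired analysis was possible because both experiments are merged in 1 list and no result comes from a test, and no replicate could be left out. With no counts, a missing peak cannot be told from one below the IDR limit.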

Other observations

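The ribosomal S6 kinases, which share the start of the symbol, were left out of the ribosomal protein genes. Of the 8 kinase genes, 5 had an EGR1 peak (62.5%, 95% Wilson interval 30.6 to 86.3%), where 28.0% of all protein-coding genes had one. Their median promoter CpG ratio was 0.77, and the interval includes the 47.9% of CpG-rich protein-coding genes with a peak. Rps6ka2 had the lowest IDR (9.91e-08, centred 213 bp before a TSS), followed by Rps6ka4 (0.000179), Rps6ka5 (0.00115), Rps6ka3 (0.00439) and Rps6kb2 (0.0132). Rps6ka1, Rps6ka6 and Rps6kb1, the gene of the kinase best known for phosphorylating Rps6, had none within 1 kb.

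Many ribosomal protein genes carry small nucleolar RNAs, which guide the modification of ribosomal RNA, in their introns. Such a host was 30 of the 86 genes, with 58 small nucleolar RNAs in all. An EGR1 peak was found at 15 of the 30 hosts (Wilson interval 33.2 to 66.8%) and at 16 of the 56 other ribosomal protein genes (28.6%, 18.4 to 41.5%), and these intervals overlapped. Peaks were at 28.0% of all protein-coding genes and at 47.9% of the CpG-rich ones, the latter within the interval of the hosts. Processed pseudogenes of ribosomal proteins, recognised by symbol, had a peak within 1 kb of their start in 1 of 294 cases (0.340%), and other processed pseudogenes in 30 of 9654 (0.311%).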
